A study of Mus musculus with 15 samples.

Results

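The genes described here are 38 genes of protein quality control in the endoplasmic reticulum (ER): 19 chaperones and folding enzymes, 15 genes of ER-associated degradation and 4 sensors and transcription factors of the unfolded protein response. They were chosen by name, as a list of known ER genes, and not by a rule on a measured value. Earlier results of these data were known at that time, so their shares beside all genes are descriptions only. All 38 were found among the 55335 genes of the count files. Of these, 37 passed the filter on low counts, which kept 13077 genes in all. The exception was Pdia5, a protein disulfide isomerase, with 0 reads in the 3 KO libraries and 0 reads in the 3 WT libraries. With 3 counts as the limit that a count of 0 allows, its level was at most 0.141 to 0.212 CPM, depending on the library.

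RNA was sequenced from cultured mouse pre-B cells, grouped here by title as MSL2KO (KO, 3 libraries) or MSL2WT (WT, 3 libraries). In a KO line Msl2, the gene of a ubiquitin ligase in the MSL histone acetyltransferase complex, had been targeted. The other clone was labelled wt. Which libraries came from which is given differently by titles and tags, as described below. Both groups were SLP65KO cells, which per the labels lack SLP65, the adaptor encoded by Blnk that carries signals from the pre-B cell receptor. They came from bone marrow, were subcloned from a single cell, were kept in medium with IL7 and received no treatment. The KO line was made by electroporation of a guide RNA against Msl2. Each genotype was thus 1 cell line, and nothing in the labels says that the 3 libraries came from separate cultures. The p-values therefore rest on the variation among these libraries alone, possibly technical in origin, and a difference between genotypes cannot be told apart from a difference between the lines. The libraries held 14092278 to 20803227 counts. Values are in CPM, which is counts scaled to a common library size with TMM factors, and are not corrected for gene length, so levels are compared between groups and not between genes.

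In all 6 RNA libraries the genotype tag says the opposite of the title, and KO and WT here mean the libraries so titled, so every direction depends on the titles. Msl2 RNA did not settle this: it was at 105, 103 and 121 CPM in the KO libraries, against 97.1, 99.3 and 92.3 CPM in the WT libraries (adjusted p = 0.302). Blnk RNA was detected in both groups, at 116, 111 and 108 CPM in the KO libraries, against 83.2, 119.6 and 92.2 CPM in the WT libraries (adjusted p = 0.563). The libraries numbered 2 stood between the groups more often than the others. Over the 600 genes called between KO and WT, KO replicate 2 was the KO library nearest to WT in 53.3%, and WT replicate 2 was the WT library nearest to KO in 51%. Of 16 pre-B cell markers, 15 were tested. In KO 0 were called higher, beside 1.8% of all genes, and 1 lower, beside 2.79%. The markers Cd79a and Igll1 were present in every library, but Rag1 and Rag2 were not. Rag2 was at 3.36, 2.07 and 2.44 CPM in KO, against 0, 1.52 and 0 CPM in WT (adjusted p = 0.223). Rag1 was at 1.8, 0.798 and 0.594 CPM in KO, against 0, 1.92 and 0 CPM in WT (adjusted p = 0.868). Cd79a, a signalling chain of the pre-B cell receptor, was at 194, 174 and 179 CPM in the KO libraries, against 180.2, 188 and 174 CPM in the WT libraries (adjusted p = 0.975). Igll1, a part of the surrogate light chain, was at 460.3, 482 and 463 CPM in the KO libraries, against 439, 445 and 558 CPM in the WT libraries (adjusted p = 0.926). Il7r, the receptor of IL7, was lower in KO, at 24.7, 40.7 and 18.9 CPM in the KO libraries, against 76.1, 96.3 and 73.6 CPM in the WT libraries (adjusted p = 0.00392). Markers of T and NK cells, of myeloid cells and of stromal cells each summed to at most 7.27 CPM in any KO library and 8.63 CPM in any WT library, and 17 of those 41 markers had no read in any library. The 12 erythroid and megakaryocyte markers summed to 134 to 192 CPM in the KO libraries and 149 to 173 CPM in the WT libraries, nearly all of it Hbb-bt. Of these, Gata1 was called, at 0.311, 0.329 and 0.066 CPM in the KO libraries, against 2.19, 1.58 and 1.79 CPM in the WT libraries (adjusted p = 0.00458). Gata1 had 99 reads over all 6 libraries, and KO replicate 3 lay below its floor of 3 counts (0.198 CPM).

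Proteins that enter the ER are folded there by chaperones such as BiP, are cross-linked by disulfide isomerases that the ERO1 oxidases recharge, and are trimmed at their sugars. Those that fail to fold are recognised by lectins, passed through a membrane complex around the ligase HRD1, and degraded by the proteasome. When unfolded protein builds up, the membrane sensors IRE1, PERK and ATF6 start the unfolded protein response. IRE1 splices the RNA of Xbp1 into the form that encodes an active transcription factor, and XBP1 and ATF6 raise many genes of folding and degradation. In the B lineage XBP1 is best known for its need in antibody-secreting plasma cells.

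ATF6 and XBP1 act through short promoter elements: the ER stress response element (ERSE: CCAAT, 9 free bases, CCACG), a second form of it (ERSE-II: ATTGG, 1 free base, CCACG) and the core of the unfolded protein response element (UPRE, TGACGTGG). Both strands of the RefSeq promoter windows of GRCm38.p6, from 250 bases before to 50 bases after each gene's start, were searched for these letters. Windows were found for 32 of the 38 genes, all but Hyou1, Manf, Derl1, Erlec1, Ube2g2 and Atf6. The ERSE stood in 10 of the 32 (31.2%), against 37 of all 27025 genes with a window (0.137%). The 10 were Hspa5, Hsp90b1, Calr, Canx, Pdia6, Dnajc3, Creld2, Ero1lb, Derl3 and Syvn1, with a pair of matches in Hsp90b1. The ERSE-II stood in 2 of the 32 (6.25%), Herpud1 and Dnajb11, against 0.0444% of all genes, and the UPRE core in 1 (3.12%), Ube2j1, against 0.714%. No listed gene held more than 1 of the motif types, so none of these matches overlapped a match of another type. Motifs and genes were both chosen for their part in the same response, so these shares are a description and were not tested.

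The following stretches show the match in capitals with 20 bases on each side, read 5′ to 3′ on the strand of the gene. They are shown for Hspa5, the gene of BiP, for 3 genes of folding and degradation whose values are described below, and for the ERSE-II of Herpud1.
Hspa5 (chr2:34772005-34772063, plus strand): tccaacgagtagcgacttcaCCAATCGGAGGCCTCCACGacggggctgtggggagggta
Dnajc3 (chr14:118937807-118937865, plus strand): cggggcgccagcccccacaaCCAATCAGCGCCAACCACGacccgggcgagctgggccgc
Syvn1 (chr19:6046512-6046570, plus strand): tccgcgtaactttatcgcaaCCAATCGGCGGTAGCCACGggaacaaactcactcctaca
Derl3 (chr10:75893222-75893280, plus strand): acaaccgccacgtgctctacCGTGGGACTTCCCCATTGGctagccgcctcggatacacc
Herpud1 (chr8:94386357-94386407, plus strand): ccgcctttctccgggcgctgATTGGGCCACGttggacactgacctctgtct
In Derl3 the ERSE lies on the opposite strand of the gene, 156 bases upstream of the start. In Hspa5, Dnajc3 and Syvn1 it lies on the strand of the gene, 65, 105 and 44 bases upstream. The 180 bases before the start of Xbp1, the gene with the largest difference in the list, are shown because none of the 3 motifs was found in its window.
Xbp1 (chr11:5520461-5520640, plus strand): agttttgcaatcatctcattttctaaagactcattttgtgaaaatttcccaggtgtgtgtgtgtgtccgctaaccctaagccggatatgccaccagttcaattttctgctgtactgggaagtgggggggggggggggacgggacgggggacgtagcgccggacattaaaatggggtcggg
The absence of a match says only that these letters are not in this window. The same holds for Edem2 and Selenos, whose windows held none of the 3 motifs.

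Of the 37 tested genes, 4 were lower in KO at an adjusted p under 0.05 and 0 were higher. The 4 were Xbp1 among the sensors and transcription factors and Derl3, Edem2 and Selenos among the degradation genes. They are 10.8% of the genes tested in the list, and 2.79% of all 13077 genes were called lower in KO. The share called higher among all genes was 1.8%. At an unadjusted p under 0.05 the edgeR test found 10 of the 37 lower, beside 8.43% of all genes, and 1 higher, Ern1, beside 6.94% of all genes. DESeq2 called 5 of the 37 lower, the same 4 and Derl1, and 0 higher. Over all 13077 genes DESeq2 called 466 lower and 327 higher. The log2 fold change of KO over WT was negative for 31 of the 37 and positive for 6, with a median of -0.14. Over all tested genes, 6411 values were negative and 6666 positive, with a median of 0. All 3 KO libraries lay below all 3 WT libraries for 13 of the 37 genes, beside 11.2% of all genes, and above them for 1, beside 9.68% of all genes. For the other 23 genes the groups overlapped. Leaving out KO replicate 1, KO replicate 2, WT replicate 1 or WT replicate 3 left 2 genes called lower, Xbp1 and Derl3, and leaving out KO replicate 3 or WT replicate 2 left 3, with Selenos. In bulk RNA, fewer cells of a type and less RNA per cell cannot be told apart.

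**Figure D1:**
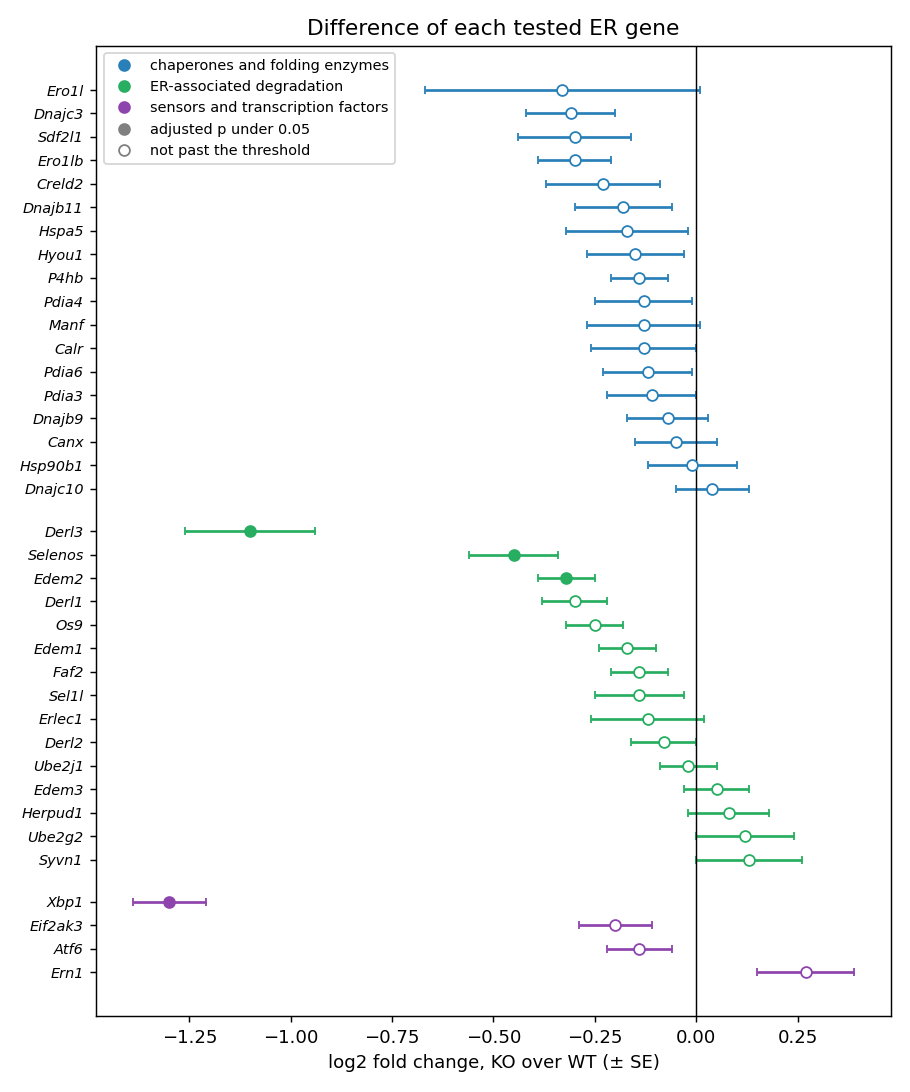
Log2 fold change of KO over WT for the 37 tested genes, grouped by role, with bars of 1 standard error from 3 KO and 3 WT libraries. Filled points are the 4 genes at an adjusted p under 0.05: Xbp1 at -1.30, Derl3 at -1.10, Selenos at -0.45 and Edem2 at -0.32. The open points of the 18 chaperones and folding enzymes lie between -0.33 and 0.04.

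Xbp1 (ENSMUSG00000020484.19, chr11:5520641-5525993 on GRCm38.p6), the transcription factor of the IRE1 branch, had the largest difference and the smallest p in the list. It was at 173, 194 and 176 CPM in the KO libraries, against 465, 394 and 474 CPM in the WT libraries. Every KO library lay far below every WT library. The means were 181 ± 11 CPM in KO and 445 ± 44 CPM in WT (SD, n = 3 each), which is 2.45-fold lower in KO. On the log2 scale this is -1.30 ± 0.09 (SE), and edgeR's quasi-likelihood test gave an adjusted p of 6.82e-05. Xbp1 ranked 10th of all tested genes by p. Behind these values stood 2664 to 4136 reads per KO library and 6587 to 7149 reads per WT library. The call held without any 1 library, with log2 fold changes of -1.377 to -1.244 and adjusted p of 6.93e-05 to 0.000672. Counts per gene do not separate spliced from unspliced Xbp1 RNA, so the active form was not measured.

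The 3 sensors upstream were not called. Ern1 encodes IRE1, the nuclease that splices Xbp1 RNA, and was at 13.1, 12.8 and 13.3 CPM in the KO libraries, against 11.9, 10.5 and 9.95 CPM in the WT libraries. It was the only gene of the list with all KO libraries above all WT libraries. Its log2 fold change was 0.27 ± 0.12 (SE), with an unadjusted p of 0.0472 and an adjusted p of 0.316. Eif2ak3, which encodes PERK, the kinase that slows translation, was at 31.4, 34.5 and 32.8 CPM in the KO libraries, against 35.7, 41.2 and 36.8 CPM in the WT libraries. The groups did not overlap, at a log2 fold change of -0.20 ± 0.09 (SE) and an adjusted p of 0.319. Atf6, the membrane-bound transcription factor, was at 122, 115 and 118 CPM in the KO libraries, against 144, 121 and 126 CPM in the WT libraries. Its groups overlapped, at a log2 fold change of -0.14 ± 0.08 (SE) and an adjusted p of 0.484.

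**Figure D2:**
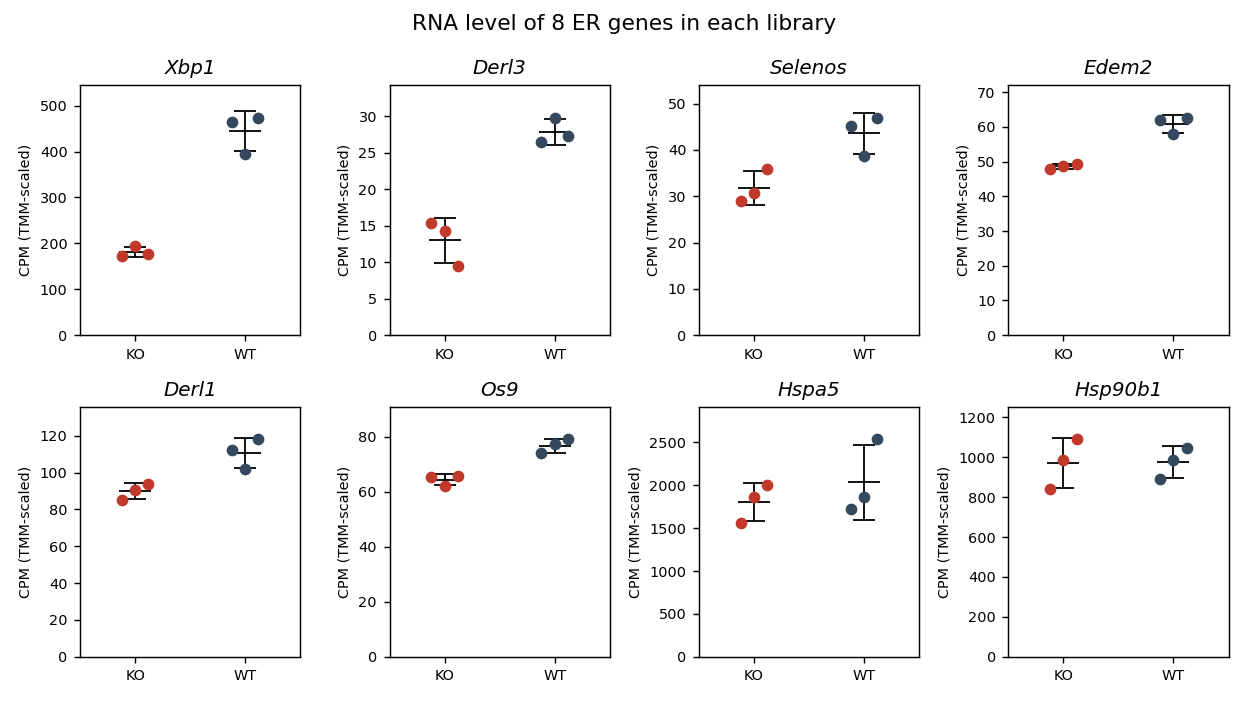
CPM of 8 genes in each of the 3 KO and 3 WT libraries, with the mean and SD as lines and every axis starting at 0. In the panels of Xbp1, Derl3, Selenos, Edem2, Derl1 and Os9 no KO point reaches a WT point, while the points of Hspa5 and Hsp90b1 overlap.

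Among the 15 genes of ER-associated degradation, 3 were lower in KO, beside 2.79% of all genes, and 0 higher, and the median log2 fold change was -0.14. The 3 were 1 derlin, 1 mannosidase-like protein and 1 membrane adaptor. For 8 of the 15 all KO libraries lay below all WT libraries, beside 11.2% of all genes, and for 0 above. The range of the list ran from -1.10 to 0.13. Without KO replicate 1, KO replicate 2, WT replicate 1 or WT replicate 3 the count of degradation genes called lower was 1, Derl3.

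The derlins are membrane proteins of the channel through which misfolded proteins leave the ER. Derl3 was at 15.3, 14.2 and 9.44 CPM in the KO libraries, against 26.4, 29.8 and 27.3 CPM in the WT libraries. The groups lay well apart, with KO replicate 3 the lowest. The means were 13 ± 3.1 CPM in KO and 27.9 ± 1.8 CPM in WT (SD, n = 3 each), 2.14-fold lower in KO. The log2 fold change was -1.10 ± 0.16 (SE), with an adjusted p of 0.00333, and without any 1 library the adjusted p ranged from 0.00204 to 0.0139. Derl1 was at 85.1, 90.6 and 94 CPM in the KO libraries, against 112, 102 and 118 CPM in the WT libraries. The groups did not overlap, but at a log2 fold change of -0.30 ± 0.08 (SE) its adjusted p was 0.0668. DESeq2 called it, at an adjusted p of 0.0313. Derl2 was at 44, 44.8 and 42 CPM in the KO libraries, against 45.4, 45.1 and 48.4 CPM in the WT libraries. The groups did not overlap, yet the difference was small, at -0.08 ± 0.08 (SE) on the log2 scale and an adjusted p of 0.719.

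The EDEM proteins trim mannose from misfolded glycoproteins, and the lectins OS9 and ERLEC1 read the trimmed sugar. Edem2 was at 47.9, 48.8 and 49.3 CPM in the KO libraries, against 62, 58 and 62.7 CPM in the WT libraries. The KO libraries lay close together and all below the WT libraries. The means were 48.7 ± 0.72 CPM in KO and 60.9 ± 2.6 CPM in WT (SD, n = 3 each), 1.25-fold lower in KO, at a log2 fold change of -0.32 ± 0.07 (SE). The adjusted p was 0.0332, and it rose above 0.05 when any 1 library was left out, in the range of 0.0535 to 0.132. Edem1 was at 125, 127 and 133 CPM in the KO libraries, against 144, 142 and 147 CPM in the WT libraries, without overlap (log2 fold change -0.17 ± 0.07 SE, adjusted p = 0.232). Edem3 was at 56, 54.8 and 59.1 CPM in the KO libraries, against 58.4, 51.9 and 54.3 CPM in the WT libraries, so its groups overlapped (0.05 ± 0.08 SE, adjusted p = 0.873). The 3 EDEM genes thus ran from a called difference to a value near 0, and no test of the difference between them was made. Os9 was at 65.4, 62 and 65.7 CPM in the KO libraries, against 74, 77.2 and 79 CPM in the WT libraries. Its groups did not overlap, at a log2 fold change of -0.25 ± 0.07 (SE) and an adjusted p of 0.0751. Erlec1 had a log2 fold change of -0.12 ± 0.14 (SE) and overlapping groups (adjusted p = 0.802). It lies over Psme4 in the RefSeq annotation, and with the strand setting not stated the reads of the pair cannot be told apart.

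Selenos encodes a selenoprotein of the ER membrane that draws the ATPase p97 to the exit site. It was at 28.9, 30.7 and 35.9 CPM in the KO libraries, against 45.1, 38.6 and 47 CPM in the WT libraries. The groups did not overlap, but KO replicate 3 and WT replicate 2 lay near each other. The means were 31.9 ± 3.6 CPM in KO and 43.6 ± 4.4 CPM in WT (SD, n = 3 each), 1.37-fold lower in KO, at a log2 fold change of -0.45 ± 0.11 (SE). The adjusted p was 0.047. It was above 0.05 without KO replicate 1 (0.14), KO replicate 2 (0.164), WT replicate 1 (0.143) or WT replicate 3 (0.118).

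The core of the ligase complex gave no called gene. Syvn1, which encodes the ligase HRD1, was at 70.6, 97.4 and 101 CPM in the KO libraries, against 74.3, 90.1 and 81.3 CPM in the WT libraries. Its groups overlapped, at 0.13 ± 0.13 (SE) on the log2 scale and an adjusted p of 0.748. Sel1l, the adaptor of HRD1, was at 59.6, 70.5 and 81.2 CPM in the KO libraries, against 75.5, 75.7 and 80.8 CPM in the WT libraries (log2 fold change -0.14 ± 0.11 SE, adjusted p = 0.645). Both showed their lowest value in KO replicate 1. Herpud1, a membrane protein of the same complex and a classical target of the response, was at 175, 191 and 229 CPM in the KO libraries, against 205, 178 and 182 CPM in the WT libraries. Its log2 fold change was 0.08 ± 0.10 (SE), with an adjusted p of 0.836. Of the ubiquitin-conjugating enzymes, Ube2g2 was at 40.3, 40.7 and 47.2 CPM in the KO libraries, against 35.1, 36.1 and 46.8 CPM in the WT libraries (adjusted p = 0.756), and Ube2j1 had a log2 fold change of -0.02 ± 0.07 (SE, adjusted p = 0.956). Faf2, which tethers p97 to the membrane, lay at -0.14 ± 0.07 (SE) on the log2 scale, without overlap between the groups but with an adjusted p of 0.435.

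In the edgeR test with the filter on low counts, none of the 18 tested chaperones and folding enzymes was called in either direction. At an unadjusted p under 0.05, 2 of the 18 were lower in KO, Ero1lb and Dnajc3, beside 8.43% of all genes. On the same measure 0 were higher, beside 6.94% of all genes, and DESeq2 called 0 of the 18. With no filter on low counts, edgeR called 4 of the 18 lower in KO: Dnajc3 (adjusted p = 0.0126), Sdf2l1 (0.0195), Ero1lb (0.0306) and Ero1l. That fit called 721 of its 26696 tested genes lower in KO. The log2 fold change was below 0 for 17 of the 18, beside 6411 of all 13077 tested genes. Its median over the 18 was -0.13, with a range of -0.33 to 0.04. All KO libraries lay below all WT libraries for 3 of the 18, Ero1lb, Dnajc3 and P4hb, beside 11.2% of all genes. They lay above for 0, beside 9.68%. Their summed level was 8443, 9582 and 10284 CPM in the KO libraries, against 9332, 9936 and 11663 CPM in the WT libraries, so the groups overlapped.

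Hspa5 encodes BiP, the ER member of the HSP70 family and a common readout of the unfolded protein response. It was at 1566, 1859 and 2002 CPM in the KO libraries, against 1719.7, 1858 and 2536 CPM in the WT libraries. The groups overlapped, and WT replicate 3 alone lay above all the KO libraries. The log2 fold change was -0.17 ± 0.15 (SE), with an adjusted p of 0.692, and it was 0.018 without WT replicate 3. Hspa5 overlaps Rabepk in the annotation, which limits how exactly its reads can be assigned. Hsp90b1, which encodes the HSP90-type chaperone GRP94, was at 842, 983 and 1089 CPM in the KO libraries, against 891, 986 and 1047 CPM in the WT libraries. The groups overlapped almost wholly, at -0.01 ± 0.11 (SE) on the log2 scale and an adjusted p of 0.992. The lectin chaperones Calr and Canx had log2 fold changes of -0.13 ± 0.13 and -0.05 ± 0.10 (SE), with adjusted p of 0.761 and 0.904.

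The lowest p among the chaperones and folding enzymes belonged to an oxidase and to a co-chaperone. Ero1lb, an oxidase that recharges disulfide isomerases, was at 105, 89.9 and 89.9 CPM in the KO libraries, against 121, 121 and 106 CPM in the WT libraries. The groups touched without overlap, at a log2 fold change of -0.30 ± 0.09 (SE) and an adjusted p of 0.104. Dnajc3, a J-domain partner of BiP, was at 228, 276 and 296 CPM in the KO libraries, against 308, 316 and 369 CPM in the WT libraries. Its groups did not overlap either, at -0.31 ± 0.11 (SE) and an adjusted p of 0.167. Sdf2l1, which works with the J-domain protein DNAJB11, was at 125, 153 and 161 CPM in the KO libraries, against 149, 170 and 222 CPM in the WT libraries. The groups overlapped, at -0.30 ± 0.14 (SE) and an adjusted p of 0.361. The remaining J-domain proteins Dnajb9, Dnajb11 and Dnajc10 had log2 fold changes of -0.07, -0.18 and 0.04, with adjusted p of 0.863, 0.563 and 0.918. Dnajc10, the only positive value among the 18, was at 144, 126 and 117 CPM in the KO libraries, against 131, 121 and 125 CPM in the WT libraries. The disulfide isomerases Pdia3, Pdia4, Pdia6 and P4hb lay between -0.14 and -0.11, with adjusted p of 0.435 to 0.761. Hyou1, which exchanges the nucleotide of BiP, lay at -0.15, and Manf and Creld2, secreted or luminal proteins raised by ER stress, lay at -0.13 and -0.23. Their adjusted p ran from 0.531 to 0.784.

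Within each group most chaperones were low in the same library and high in the same library. KO replicate 1 was the lowest KO library for 14 of the 18 (77.8%), and KO replicate 3 was the highest for 14 of the 18. WT replicate 1 was the lowest WT library for 15 of the 18 (83.3%), and WT replicate 3 was the highest for 15 of the 18. Over all tested genes, these 4 shares were 36.5%, 34.4%, 33.2% and 38.5%. Ero1l, the other ERO1 oxidase, ran the opposite way, at 291, 175 and 121 CPM in the KO libraries, against 363, 233 and 141 CPM in the WT libraries. Its spread within each group was wide, with a log2 fold change of -0.33 ± 0.34 (SE) and an adjusted p of 0.761. Xbp1 shared the pattern in part: its lowest KO library was replicate 1 and its highest WT library replicate 3, but its highest KO library and its lowest WT library were both replicate 2. What differed between the libraries of a group is not given in the labels.

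**Figure D3:**
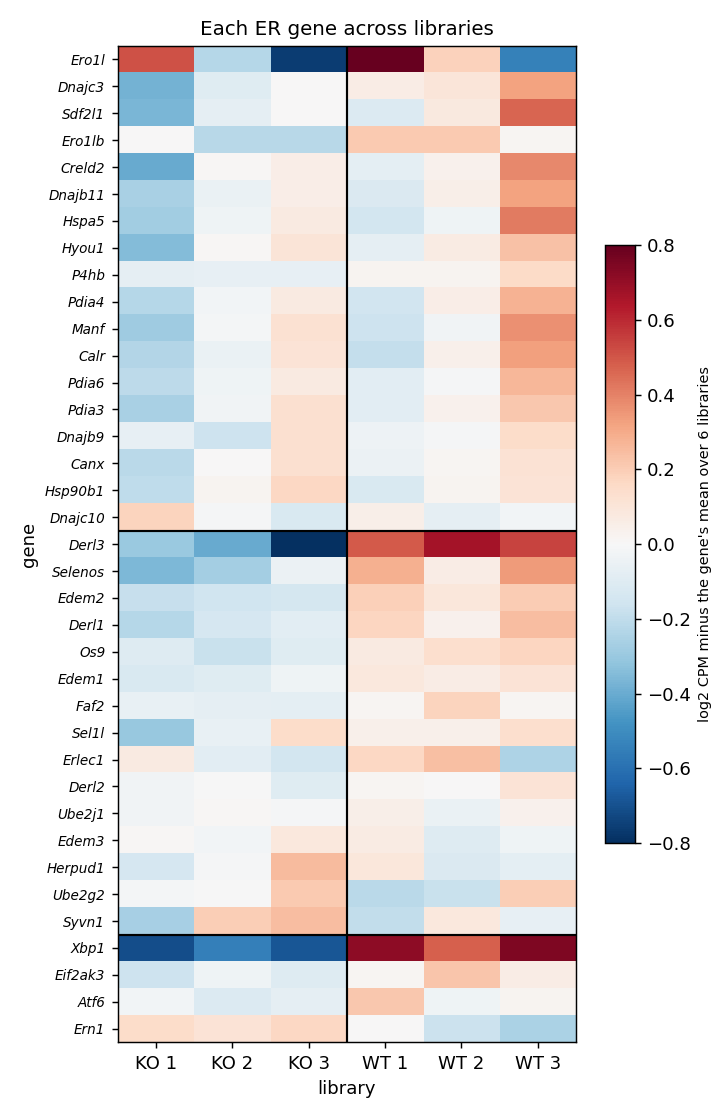
Log2 CPM of each of the 37 tested genes minus its mean over the 6 libraries, with 3 KO libraries left of 3 WT libraries and genes grouped by role. Most chaperones in the top block are low in KO 1 and WT 1 and high in KO 3 and WT 3, while Xbp1 and Derl3 are low in all 3 KO libraries and high in all 3 WT libraries.

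Genes with and without an ERSE in the promoter window are set side by side here, and no test between the classes was made. Of the 10 with an ERSE, 1 was lower in KO, Derl3, and 9 had negative log2 fold changes, with a median of -0.15 and a range of -1.10 to 0.13. Of the 21 tested genes with a window and no ERSE, 3 were lower in KO and 17 were negative, with a median of -0.14 and a range of -1.30 to 0.27. Over all 13077 tested genes, 2.79% were called lower and 6411 values were negative. The class without an ERSE is not free of motifs, as it holds Herpud1 and Dnajb11 with an ERSE-II and Ube2j1 with a UPRE core. The sequences of Hspa5, Dnajc3, Syvn1 and Derl3 shown above hold the same ERSE letters, and their log2 fold changes were -0.17, -0.31, 0.13 and -1.10.

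Further genes of the same pathways were taken from 3 lists. Of 32 other folding, glycan and redox genes of the ER, 29 were tested. Of these, 1 was lower in KO, beside 2.79% of all genes, and 0 were higher. The median log2 fold change was -0.10. At an unadjusted p under 0.05 in the edgeR test, 8 of the 29 were lower, beside 8.43% of all genes. On the same measure 0 were higher, beside 6.94% of all genes. The called gene was Mzb1, which encodes pERp1, an ER cofactor of antibody folding in B cells. It was at 33.3, 34.9 and 32.5 CPM in the KO libraries, against 44.2, 47.8 and 55.1 CPM in the WT libraries. The groups lay apart, at a log2 fold change of -0.55 ± 0.10 (SE) and an adjusted p of 0.00963. Next came Prkcsh, a subunit of glucosidase II, at 103, 98.4 and 112 CPM in the KO libraries, against 126, 123 and 138 CPM in the WT libraries. It did not pass the threshold (-0.31 ± 0.08 SE, adjusted p = 0.0563), although its groups did not overlap, while DESeq2 called Prkcsh and Mzb1.

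Of 29 other degradation and extraction genes, 28 were tested, and the edgeR test called 0 in either direction. At an unadjusted p under 0.05, 1 was higher, Bag6, beside 6.94% of all genes, and 2 were lower, Aup1 and Foxred2, beside 8.43%. Bag6, a cytosolic holdase, lay at 0.19 ± 0.09 (SE) on the log2 scale (adjusted p = 0.314). Aup1, a partner of the HRD1 complex, lay at -0.22 ± 0.07 (SE, adjusted p = 0.111), and Foxred2, a flavoprotein of ER-associated degradation, at -0.20 ± 0.08 (SE, adjusted p = 0.275). Positive and negative values were equally many, 14 each, with a median of 0. Of 28 other stress sensing and signalling genes, 25 were tested and 0 were called, with a median of -0.05. DESeq2 also called 0 genes of both lists. At an unadjusted p under 0.05, 2 stress genes were higher, Map3k5 and Atf6b, and 1 was lower, Tex264, beside the same shares of all genes. Atf6b, the paralog of Atf6, lay at 0.25 ± 0.08 (SE, adjusted p = 0.139) and Tex264, a receptor of ER autophagy, at -0.26 ± 0.09 (SE, adjusted p = 0.187). The smallest p belonged to Map3k5, the kinase ASK1 downstream of IRE1, at 53.3, 48.4 and 50.6 CPM in the KO libraries, against 17.7, 41.3 and 18.8 CPM in the WT libraries. WT replicate 2 lay far from the other WT libraries, and the log2 fold change of 0.96 ± 0.26 (SE) had an adjusted p of 0.0742. Atf4, the transcription factor of the PERK branch, was at 342, 328 and 357 CPM in the KO libraries, against 434, 338 and 382 CPM in the WT libraries (adjusted p = 0.47).

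**Figure D4:**
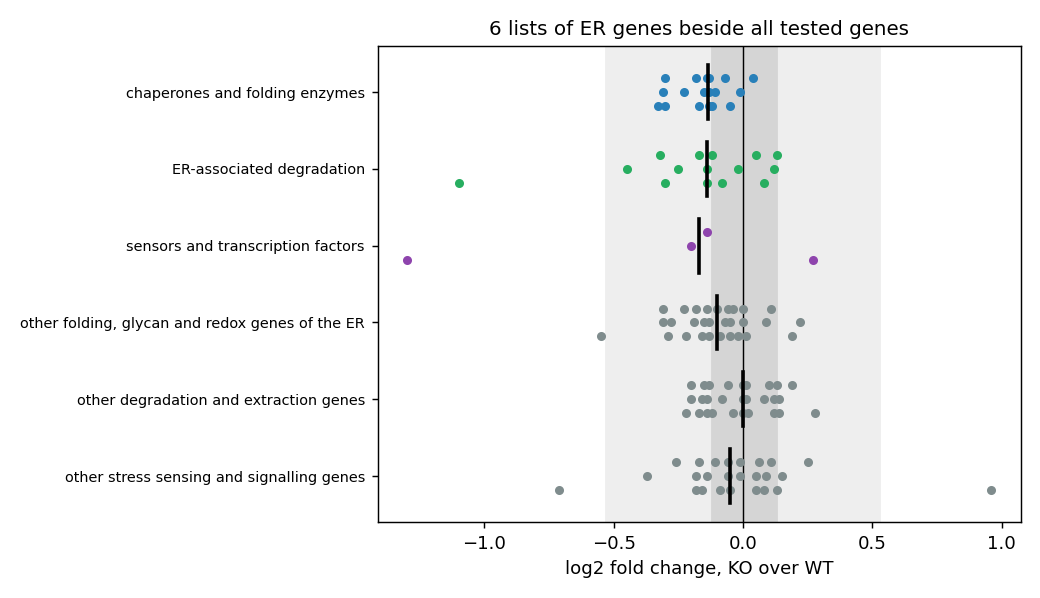
Log2 fold change of KO over WT for each tested gene of the 3 groups described above and of 3 further ER lists, with each median as a vertical bar. The light band runs from the 5th to the 95th percentile of all tested genes (-0.53 to 0.53) and the dark band from the 25th to the 75th (-0.12 to 0.13). Xbp1 and Derl3 lie left of the light band.

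Because XBP1 and Mzb1 are also known from plasma cells, the 12 markers of that cell type are given beside them. Of these, 8 were tested, and 2, Sdc1 and Mzb1 itself, were lower in KO, beside 2.79% of all genes. The list summed to 292 to 326 CPM in the KO libraries and 367 to 446 CPM in the WT libraries, without overlap. Most of this sum was Irf4 and Ell2, and neither was called. Sdc1, the surface proteoglycan CD138, was at 11.1, 12.9 and 11 CPM in the KO libraries, against 20.6, 22.8 and 32 CPM in the WT libraries (log2 fold change -1.10, adjusted p = 0.00383). Prdm1, which encodes the defining factor Blimp-1, had 4 reads over all 6 libraries, and Tnfrsf17 had 9. Irf4 was at 91.2, 111 and 123 CPM in the KO libraries, against 116, 182 and 89.8 CPM in the WT libraries (adjusted p = 0.676). Ell2 was at 107, 106 and 119.5 CPM in the KO libraries, against 137, 127 and 142 CPM in the WT libraries. Its groups did not overlap, at a log2 fold change of -0.29 (adjusted p = 0.0736). Slamf7 and Tent5c had log2 fold changes of -0.52 and -0.07 (adjusted p = 0.333 and 0.963). Not every marker lay lower in KO: Cd38 was at 9.51, 4.6 and 3.96 CPM in the KO libraries, against 2.12, 3.21 and 3.45 CPM in the WT libraries, without overlap (log2 fold change 1.03, adjusted p = 0.151). Jchain, the joining chain of secreted antibodies, had a log2 fold change of 0.12 (adjusted p = 0.946). The part of such cells or of this programme in the lower Xbp1 level was not tested.

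Over the 6 libraries, the genes whose log2 CPM followed the called genes most closely were outside the ER lists. For Xbp1 they were Camkv, Sox6 and Spcs2, with Pearson r of 0.999, 0.996 and 0.995. Spcs2, a subunit of the signal peptidase that cleaves proteins entering the ER, was at 191, 215 and 200.4 CPM in the KO libraries, against 311, 294 and 314 CPM in the WT libraries. It was lower in KO at a log2 fold change of -0.60 and an adjusted p of 0.00162. For Derl3 they were Zranb3, Stat4 and Adcy6 (0.996, 0.994 and 0.993), for Edem2 they were Dnaaf2, Vrtn and Rassf1 (0.998, 0.997 and 0.997), and for Selenos they were Them6, Cisd2 and Hdac5 (0.997, 0.993 and 0.992). These values describe 6 points that share the split into KO and WT, and any gene with that split and little spread within groups scores high. Sox6 and Vrtn were near silent in the KO libraries, at no more than 0.0469 and 0.132 CPM.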

How the data were processed

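RNA libraries of 3 KO and 3 WT samples were analysed, grouped by title. The other 9 samples, from chromatin immunoprecipitation and its inputs, were not used here. The deposited files hold raw counts, 1 whole number per gene, per the file headers. The submitters' processing notes list, without roles, mm10 and among other tools featureCounts 2.0.0 and STAR 2.5.3a. Strand setting, annotation release and treatment of reads that map more than once are not stated there.

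Symbols came from a table of gene names: 54587 identifiers matched with their version, 567 without it (Xbp1 among them), and 181 did not match. Positions came from RefSeq (GRCm38.p6). Genes were kept by filterByExpr and scaled by TMM. They were tested with edgeR 4.0.16 (quasi-likelihood, no covariate) in R 4.3.3, with Benjamini-Hochberg adjustment over 13077 genes and a threshold of 0.05. The biological coefficient of variation was 0.109. The SE of a log2 fold change follows from the fold change and the F statistic. A check of the test on simulated counts was run, and its outcome is not reported here. It held no differences as small as those of Edem2 and Selenos. Floors of 3 counts cover counting error only. The members and lists were chosen with earlier results of these data known.

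Values in every library are given for called genes, Hspa5, Hsp90b1, the 4 sensors and transcription factors, and up to 6 other genes with the smallest p in each direction (all 5 others with a positive value). Other genes of the list with such values, Derl2, Sel1l and Ero1l, were chosen after their values were seen. So were Spcs2, Atf4, Irf4, Ell2, Slamf7, Tent5c, Cd38 and Jchain. Levels per length and protein signals were not analysed here. Of the pre-B cell markers only Cd79a, Igll1, Il7r, Rag1 and Rag2 are reported singly here. Rag1 and Rag2 were chosen after their values were seen. Alternatives were leaving out each library or both numbered 2, DESeq2 1.42.0, limma-voom (limma 3.58.1), a replicate block, scaling by RLE or by totals only, and a higher filter (mean log2 CPM at least 2) or none.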

Additional observations from a re-analysis of the deposited data

How the results depend on the processing

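Of the 37 ER genes, 4 were called lower in KO. That count was 9 with no filter on low counts, 9 with the replicate block, 2 with both libraries numbered 2 left out, and 2 to 3 when 1 library was left out. Xbp1 and Derl3 were called in each of these fits. Among the chaperones and folding enzymes, where the filtered edgeR test called 0, the fit with no filter called Ero1l, Ero1lb, Dnajc3 and Sdf2l1, and the replicate block called Ero1l, Ero1lb (adjusted p = 0.0334) and Dnajc3 (0.0235). The degradation genes called lower, 3 in the edgeR test, numbered 5 with the replicate block, 1 with both libraries numbered 2 left out, and 1 to 2 with 1 library left out. None of the 37 was called higher under any alternative run. Over all genes, 235 were called higher in KO. The count was 482 with no filter, 381 with the replicate block, and 138 to 227 with 1 library left out. All genes called lower, 365 in the edgeR test, numbered 721 with no filter, 234 with the filter at a mean log2 CPM of 2, 565 with the replicate block, 224 with both libraries numbered 2 left out, and 242 to 316 with 1 library left out. The filter at a mean log2 CPM of 2 tests 9636 genes in place of 13077, and fits that leave out libraries have fewer samples. The cause of the changed counts was not tested for any alternative.

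The median log2 fold change of the ER genes stayed negative, between -0.195 and -0.063 with 1 library left out and between -0.157 and -0.116 under the other alternatives. Derl1 was called with no filter (adjusted p = 0.0268), with DESeq2 (0.0313) and with the replicate block (0.0334). Selenos was not called with library totals only (0.0519) or the filter at a mean log2 CPM of 2 (0.051). With both libraries numbered 2 left out, Edem2 (0.209), Selenos (0.128) and Mzb1 (0.0657) were not called. The replicate numbers were not shown to pair the libraries: over all genes, deviations from the group means of same-numbered libraries correlated at 0.03, 0.21 and 0.40, and KO replicate 2 correlated best with WT replicate 1 (0.27). Over the 37 ER genes alone the same correlations were 0.79, 0.13 and 0.75, although KO replicate 2 there correlated best with WT replicate 3 (0.36). These values come from the data and not from the design. Many of the 37 genes moved together across libraries, so they are not separate evidence of a pairing. Taking same-numbered libraries together, 13 of the 18 chaperones (72.2%) were lower in KO at all 3 numbers, beside 21.9% of all genes. This assumes a pairing that the labels do not state. Most chaperones rose and fell together across libraries, so these 13 are not separate observations. For Pdia5 the depth gives only an upper limit.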
